A study of Mus musculus with 36 samples.

Results

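H4K91R, a form of histone H4 with arginine in place of lysine 91, was compared with wild-type H4 (H4WT) at the protein-coding genes of mouse embryonic stem cells (mESCs). A gene was counted as marked by a histone where a region of its peak list lay within 1 kb of either end of the gene, once every region touching an empty-vector region, even by 1 bp, had been dropped. Of 21887 protein-coding genes in mm10, 13233 were marked by at least 1 of the histones. Gained genes had H4K91R without H4WT, kept genes had both, and lost genes had H4WT without H4K91R.

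The series followed H4WT and its lysine 91 mutants along chromatin in mESCs and in neural cells derived from them, with 36 samples in all. The H4K91R line stably expressed H4K91R with a triple HA epitope tag from a PiggyBac transgene, the H4K91Q line the glutamine mutant from the same kind of transgene, the H4WT line tagged wild-type H4, and the control line carried an empty PiggyBac vector. All lines came from parental mESCs, and the labels name no change to the cells' own H4 genes, no promoter for the transgene and no clone. HA ChIP-seq, in which anti-HA beads pull down the tagged histone with the DNA around it, gave 1 library per line, so no difference between lines has a replicate check and no test between them was possible. Read numbers are not part of the lists, the depth of each library is therefore unknown, and the exact 95% intervals given below cover the counting of genes or regions only. Histone peak lists do not measure expression, so marker genes could not serve to check the labelled cell type.

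Histone H4 pairs with H3 to form the core of the nucleosome, around which DNA is wrapped. Lysine 91 lies in the globular part of H4, at the surface where the H3/H4 tetramer meets the H2A/H2B dimers, and it can be acetylated or ubiquitinated. Arginine keeps the positive charge of lysine but accepts neither of these modifications, whereas glutamine removes the charge. Missense changes of this residue have been found in people with developmental delay and microcephaly.

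The gained genes differed from the kept and lost genes in the sequence at their starts, which is shown first. The 9 promoters below are the first 3 of each class, by the authors' fold enrichment, whose region overlapped the promoter. Each runs 5′ to 3′ along the gene, from 250 bases before to 50 bases after the annotated start (RefSeq, GRCm38.p6, the same build as mm10), and capitals mark each CpG dinucleotide. The gained genes were Epp13 (chr7:6252460-6252759, plus strand), Fbxw23 (chr9:109543140-109543439, minus strand) and Aoc1 (chr6:48895005-48895304, plus strand), with 2, 3 and 3 CpGs. Their CpG observed over expected, a measure explained below, was 0.14, 0.17 and 0.14, under the lower quartile of gained promoters (0.22), so they are poor in CpGs even for gained genes.
Epp13: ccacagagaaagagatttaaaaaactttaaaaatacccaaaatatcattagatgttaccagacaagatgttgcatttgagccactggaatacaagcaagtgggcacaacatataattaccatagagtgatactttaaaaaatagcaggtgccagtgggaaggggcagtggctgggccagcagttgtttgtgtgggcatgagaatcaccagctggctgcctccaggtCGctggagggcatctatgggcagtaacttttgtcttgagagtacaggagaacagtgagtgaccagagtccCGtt
Fbxw23: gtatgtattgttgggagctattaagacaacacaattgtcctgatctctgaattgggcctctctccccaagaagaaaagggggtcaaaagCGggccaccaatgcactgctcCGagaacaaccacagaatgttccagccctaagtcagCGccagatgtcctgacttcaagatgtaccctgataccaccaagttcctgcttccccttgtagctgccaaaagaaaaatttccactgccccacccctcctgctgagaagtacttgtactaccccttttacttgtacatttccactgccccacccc
Aoc1: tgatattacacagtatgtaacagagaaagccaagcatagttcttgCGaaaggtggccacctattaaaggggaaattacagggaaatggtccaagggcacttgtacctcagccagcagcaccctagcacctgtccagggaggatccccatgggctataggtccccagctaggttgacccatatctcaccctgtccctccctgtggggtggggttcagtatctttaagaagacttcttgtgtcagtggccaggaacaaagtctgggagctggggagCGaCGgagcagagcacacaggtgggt
The kept genes were Csf2ra (chr19:61228369-61228668, minus strand), Il3ra (chr14:14346245-14346544, plus strand) and Phyhipl (chr10:70599242-70599541, minus strand), with 23, 35 and 43 CpGs.
Csf2ra: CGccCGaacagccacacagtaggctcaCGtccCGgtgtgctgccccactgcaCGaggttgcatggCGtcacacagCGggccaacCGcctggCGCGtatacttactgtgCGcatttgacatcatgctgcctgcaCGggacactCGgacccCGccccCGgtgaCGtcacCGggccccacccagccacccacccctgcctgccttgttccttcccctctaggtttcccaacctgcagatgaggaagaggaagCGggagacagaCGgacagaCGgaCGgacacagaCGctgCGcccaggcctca
Il3ra: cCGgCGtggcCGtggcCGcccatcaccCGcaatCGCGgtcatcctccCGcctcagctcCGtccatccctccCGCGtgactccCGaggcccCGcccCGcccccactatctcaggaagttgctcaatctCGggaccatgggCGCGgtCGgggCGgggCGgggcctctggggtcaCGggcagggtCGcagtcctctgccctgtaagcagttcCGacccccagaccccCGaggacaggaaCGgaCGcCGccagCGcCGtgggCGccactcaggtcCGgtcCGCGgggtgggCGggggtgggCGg
Phyhipl: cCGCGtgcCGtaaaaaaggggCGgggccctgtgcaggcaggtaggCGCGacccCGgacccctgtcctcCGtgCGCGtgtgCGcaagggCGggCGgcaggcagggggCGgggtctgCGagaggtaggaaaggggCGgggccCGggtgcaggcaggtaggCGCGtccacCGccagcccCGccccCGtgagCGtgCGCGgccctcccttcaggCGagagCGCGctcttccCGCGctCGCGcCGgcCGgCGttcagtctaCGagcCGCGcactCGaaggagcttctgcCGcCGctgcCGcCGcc
The lost genes were Timp2 (chr11:118355362-118355661, minus strand), Icosl (chr10:78069118-78069417, plus strand) and Clic4 (chr4:135272711-135273010, minus strand), with 25, 26 and 28 CpGs.
Timp2: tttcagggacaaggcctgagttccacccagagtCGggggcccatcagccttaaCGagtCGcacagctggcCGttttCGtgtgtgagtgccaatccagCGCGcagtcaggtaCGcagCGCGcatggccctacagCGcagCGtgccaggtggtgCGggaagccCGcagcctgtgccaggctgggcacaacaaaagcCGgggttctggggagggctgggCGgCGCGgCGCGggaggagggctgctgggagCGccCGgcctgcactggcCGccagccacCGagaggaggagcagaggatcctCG
Icosl: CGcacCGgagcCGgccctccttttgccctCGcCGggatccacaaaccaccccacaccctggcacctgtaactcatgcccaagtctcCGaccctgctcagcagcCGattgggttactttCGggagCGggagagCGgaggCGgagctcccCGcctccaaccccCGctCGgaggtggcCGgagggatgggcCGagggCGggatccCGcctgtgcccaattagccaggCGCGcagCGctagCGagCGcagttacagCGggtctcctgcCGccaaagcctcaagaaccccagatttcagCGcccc
Clic4: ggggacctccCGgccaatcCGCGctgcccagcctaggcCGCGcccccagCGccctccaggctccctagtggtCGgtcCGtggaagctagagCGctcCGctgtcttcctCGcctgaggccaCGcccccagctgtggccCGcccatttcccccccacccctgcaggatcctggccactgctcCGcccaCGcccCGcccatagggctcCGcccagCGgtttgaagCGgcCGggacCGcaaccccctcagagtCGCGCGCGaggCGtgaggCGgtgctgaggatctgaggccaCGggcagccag
In these examples the gained promoters held few CpGs, and the kept and lost promoters many.

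The 3 classes were of very unequal size. Gained genes numbered 458, which was 2.09% of all protein-coding genes (exact 95% interval 1.91 to 2.29). Kept genes numbered 7828, or 35.8% (35.1 to 36.4). Lost genes numbered 4947, or 22.6% (22.0 to 23.2), and 8654 genes had neither mark. At gene ends, H4K91R thus marked mostly a subset of the H4WT-marked genes. Over all regions, at gene ends or not, 54% of H4K91R regions overlapped an H4WT region (53.5 to 54.4). Of H4WT regions, 37.7% overlapped an H4K91R region (37.4 to 38.1). Seen from H4WT, 61.3% of its 12775 marked genes were kept (60.4 to 62.1) and 38.7% were lost. Seen from H4K91R, 5.53% of its 8286 marked genes were gained (5.05 to 6.04), and 5.03% of the 9112 genes without H4WT were gained. The lists differed in length, with 47898 regions for H4K91R and 67078 for H4WT after 1257 and 2080 regions that met the empty vector had been dropped. With the H4WT list cut to the length of the H4K91R list, gained genes numbered 753, and 64.3% of the H4WT-marked genes were kept.

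The kept genes were mostly common places, whereas many gained and lost genes had the other histone nearby. At 94.7% of kept genes an H4K91R region and an H4WT region at the gene ends overlapped each other. Among gained genes, 41.5% had an H4WT region elsewhere in the gene, and 38.0% had none in the gene or within 10 kb of it. Among lost genes, 33.9% had an H4K91R region elsewhere in the gene, and 44.0% had none in the gene or within 10 kb. The 458 gained genes rested on 445 different regions and the 4947 lost genes on 4476, since neighbouring genes can share an end. An empty-vector region was found at an end of 5.24% of gained genes and 1.6% of lost genes, and 6.11% of gained genes had an H4WT region that was dropped for this reason. The window edge had genes on both sides of it: 188 genes had their nearest H4K91R region between 900 and 1000 bp from a gene end and 159 between 1000 and 1100 bp, and for H4WT the counts were 111 and 130.

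The highest H4K91R fold per gene was lower at gained than at kept genes. The authors' fold enrichment is the ratio of the pulldown to the local background at a region's summit. For each gene the highest fold at its ends was taken. For H4K91R its median was 5.12 at gained genes (quartiles 4.54 and 5.74) and 5.62 at kept genes (4.90 and 6.58). In the H4WT list the median was 6.42 at lost genes (5.28 and 7.88) and 8.07 at kept genes (6.58 and 9.66). Kept genes more often had regions at both ends. Among genes with known strand, H4K91R was at both in 8.77% of gained and 14.8% of kept genes. H4WT was at both in 14.1% of lost and 29% of kept genes. The part of this in the fold differences was not tested. The quartile ranges overlapped in both lists. At gene starts, the share of H4WT-marked genes that H4K91R also marked went up with the H4WT fold, from 33% in the lowest group of 5 (30.9 to 35.2) through 45.0%, 57.6% and 68.9% to 77.4% in the highest (75.4 to 79.3). The CpG content of the promoter hardly moved this share. In the lowest group it was 32.1%, 34.2% and 32.2% for promoters with a CpG observed over expected below 0.4, from 0.4 to 0.8 and from 0.8, and in the highest group it was 77.3%, 78.4% and 76.5%.

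**Figure D1:**
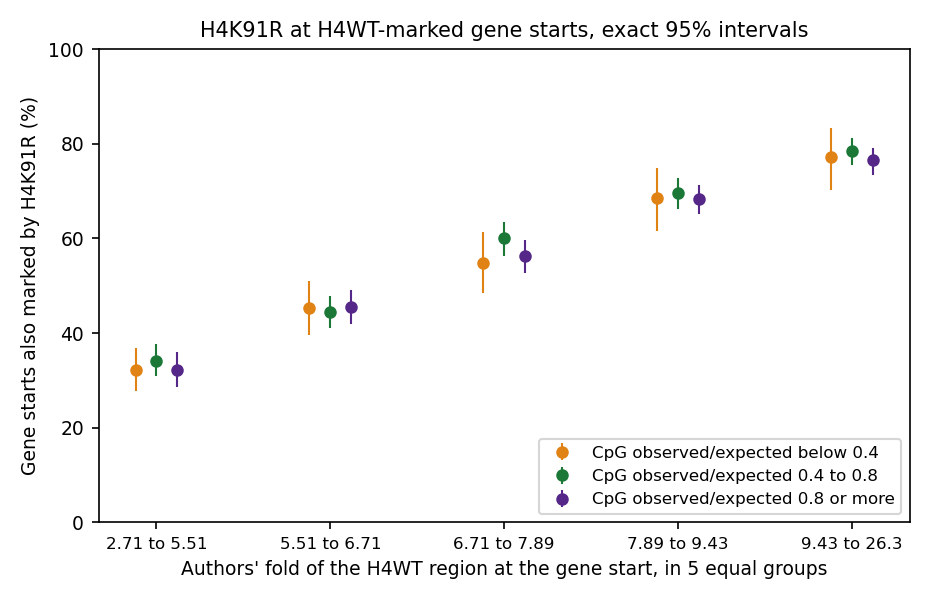
Share of H4WT-marked gene starts also marked by H4K91R (y axis, %), by the authors' fold of the H4WT region (x axis, 5 groups of equal size) and by promoter CpG observed over expected (colours). Bars are exact 95% intervals; the share goes from 33% to 77.4% across the 5 groups over all promoters, and in each of them the intervals of the 3 CpG groups overlap.

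Promoters of gained genes had an intermediate CpG content. CpG observed over expected, which corrects the number of CpGs for the C and G content, had a median of 0.45 at gained genes (quartiles 0.22 and 0.71), 0.75 at kept genes and 0.74 at lost genes, against 0.22 at genes with neither mark and 0.58 at all genes. Promoters below 0.4 made up 44.4% of those at gained genes (39.2 to 49.6), 15.4% at kept genes (14.5 to 16.4) and 18.3% at lost genes (17.1 to 19.5). The share was 39.1% among all genes. Kept and lost genes were thus close in this measure, and gained genes stood between them and the genes with neither mark. Outside chromosome 18, for which no promoter was used here, RefSeq promoters were at hand for 81.8% of gained, 80.6% of kept and 81.9% of lost genes. The gained median was 0.51 when both lists were limited to −log10 q values from 5 upward and 0.68 with both cut to 20000 peaks, nearer to the kept and lost genes. Gained genes were also shorter, with a median of 17.0 kb, against 22.1 kb for kept and 21.4 kb for lost genes and 17.2 kb for all. With both lists cut to 20000 peaks this order turned, with 23.2 kb for gained, 21.6 kb for kept and 22.7 kb for lost genes.

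**Figure D2:**
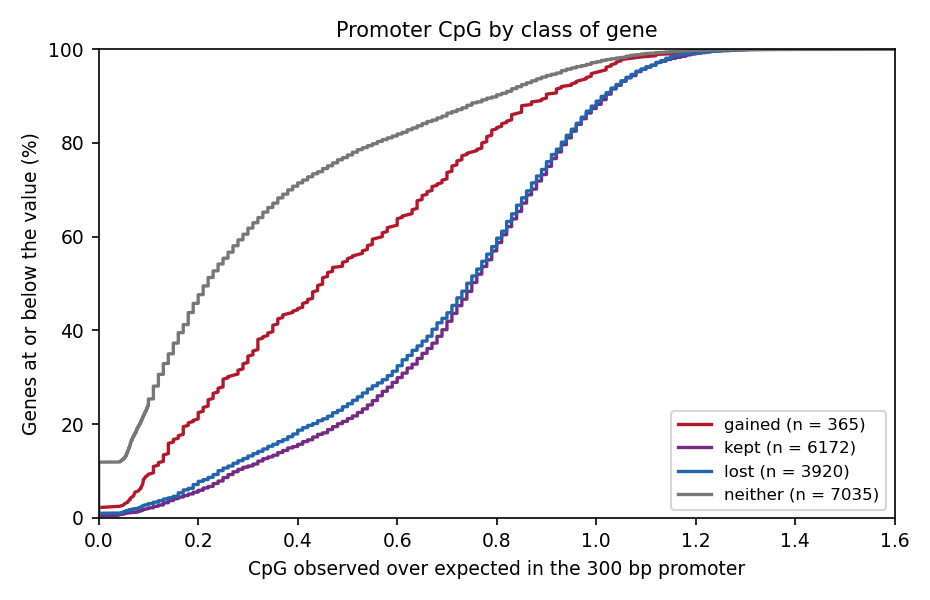
Cumulative share of genes (y axis, %) by CpG observed over expected in the promoter (x axis, no unit), for gained, kept and lost genes and for genes with neither mark. The kept and lost curves nearly coincide, with medians of 0.75 and 0.74, and the gained curve, with a median of 0.45, runs between them and the curve of genes with neither mark.

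Short promoter motifs were searched on both strands of the promoter, with genes classed by their start alone. None of the motifs contains another, and a match describes the letters only. GGGCGG, the GC box that Sp1 can bind, was in 40.8% of gained promoters (35.3 to 46.4), 69.7% of kept and 64.0% of lost promoters, against 46.3% of all 17492 promoters. TATAAA, the TATA box, was in 13.2% of gained (9.66 to 17.4), 6.62% of kept and 6.66% of lost promoters, against 13.3% of all. CCGGAAG, a core recognised by ETS factors, was in 12.9% of gained, 13.8% of kept (12.8 to 14.7) and 18.4% of lost promoters (17.3 to 19.7), against 11.9% of all. The ETS letters were thus more frequent at lost than at kept promoters, with intervals that did not overlap. CCAAT, TGACGTCA (the cyclic AMP response element) and CACGTG (an E-box) stood at 38.6%, 2.19% and 8.78% of gained, 34.8%, 3.26% and 9.85% of kept, and 39.3%, 2.88% and 10.5% of lost promoters, against 39.2%, 2.33% and 7.91% of all.

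The histones had the same position relative to gene starts. Shares are of all summits outside chromosome 18, which were 46613 for H4K91R, 65476 for H4WT and 2947 for the empty vector. At genes with a known strand, both histones had the most summits between 200 and 300 bp after the start. That bin held 2.06% of H4K91R summits and 2.66% of H4WT summits. The 1 kb after the start held 11.0% of H4K91R summits, 13.4% of H4WT summits and 3.39% of empty-vector summits. The 1 kb before the start held 2.42%, 3.34% and 0.475%. Marking thus lay downstream of the start for both, and empty-vector summits had a smaller peak on the same side. At starts of gained genes the H4K91R summit was at a median of 202 bp after the start. At starts of kept genes it was at 289 bp for H4K91R and 283 bp for H4WT, and at starts of lost genes H4WT was at 233 bp.

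**Figure D3:**
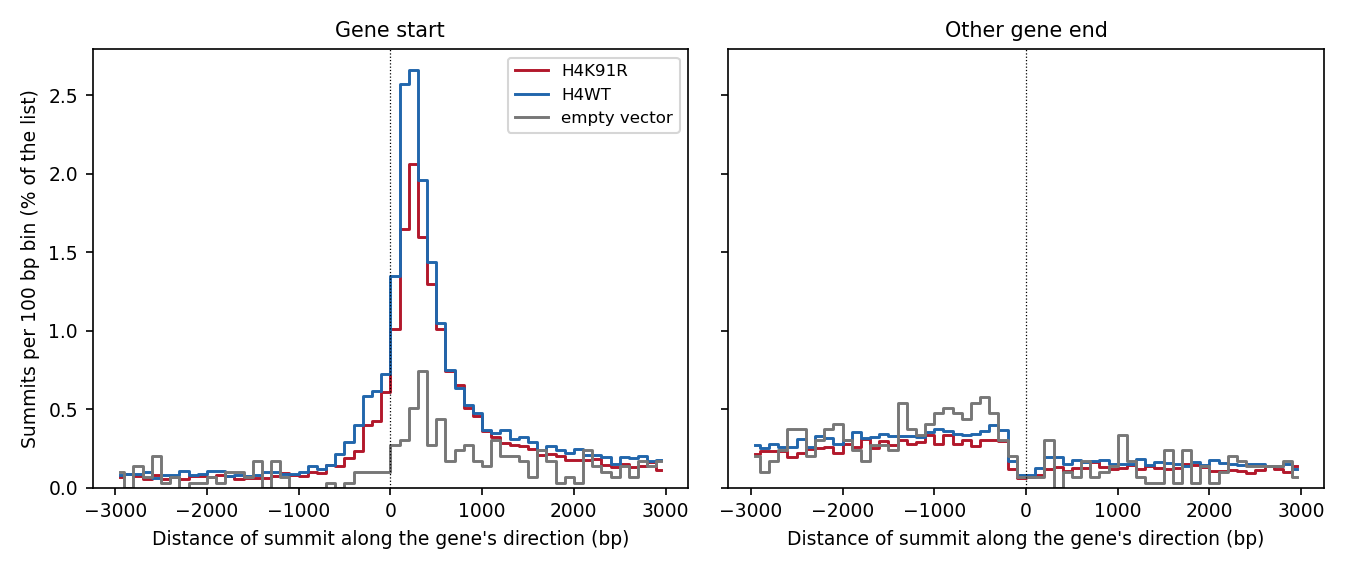
Summits per 100 bp bin (y axis, % of the list's summits outside chromosome 18) by distance from the gene start (left) and from the other gene end (right), along the gene's direction (x axis, bp), for H4K91R, H4WT and the empty vector. Both tagged histones have most summits from 200 to 300 bp after the start, at 2.06% for H4K91R and 2.66% for H4WT, and no such peak at the other end.

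Marks at gained genes lay only at the far end of the gene more often than those of the other classes. The class rule bears on this, since a gained gene cannot have H4WT at either end. H4WT marked 9402 starts and 3033 other ends of the 17492 genes with known strand. Of 365 gained genes with known strand, 29.3% had H4K91R at the other end only (24.7 to 34.3), 61.9% at the start only and 8.77% at both. Of 6172 kept genes, H4K91R was at the other end only in 13.1% (12.3 to 14.0), and of 3920 lost genes, H4WT was there only in 8.78% (7.91 to 9.71). Taken end by end, H4K91R was present at 56.4% of H4WT-marked starts (55.4 to 57.4) and at 47.8% of H4WT-marked other ends (46.0 to 49.6). Gains made up 5.68% of H4K91R-marked starts, where they were 1.82% of all starts. At the other end they made up 22.2% of H4K91R-marked ends (20.3 to 24.2) and 2.37% of all ends. Of starts without H4WT, 319 were gained and 7771 had neither mark. Of other ends without H4WT, 414 were gained and 14045 had neither mark. Among ends without H4WT the gained share was thus the higher at starts. Kept and lost were 30.3% and 23.4% of all starts, and 8.29% and 9.05% of all other ends.

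Places without a partner divided in another way by histone. Positions are given relative to genes with known strand, without chromosome 18. H4K91R regions without an H4WT region had their summit at a gene start in 2.74% (2.53 to 2.97), against 22.5% of H4K91R regions with an H4WT region, and 64.3% of them lay outside these genes. H4WT regions without H4K91R were at a gene start in 13.8% (13.5 to 14.2) and outside the genes in 40.4%. Where exactly 1 H4K91R and 1 H4WT region met, in 19923 pairs, the summits were a median of 72 bp apart and 62.7% were within 100 bp. In these pairs the median width was 297 bp for H4K91R and 351 bp for H4WT, and the H4K91R region was the wider in 42.1% of pairs.

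Among the gained genes of highest fold, some lay beside an H4WT place and some far from one. Sytl3, which codes for a synaptotagmin-like protein of vesicle traffic, led with an H4K91R fold of 46.9, and Slc51a, a subunit of the bile acid transporter, followed with 22.0. Both regions overlapped an H4WT region that ended just outside the window, 1064 bp and 1129 bp from the gene end, with an H4WT fold of 16.3 at Sytl3 and 8.63 at Slc51a. The same held for Pxt1, Ube2l6, Ctsr and Slc43a2, and with windows of 2 kb these 6 genes were kept. Counted over all gained genes, the highest H4K91R region overlapped an H4WT region at 23 of 458, or 5.02%.

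Other gained genes had no H4WT region within 10 kb. Scp2, a peroxisomal sterol carrier protein gene, had an H4K91R region of fold 10.4, and the nearest H4WT region was 11430 bp from the gene. The germline histone genes H2ac1 and H2bc1 are neighbours on chromosome 13 and shared a region from 23934512 to 23934861 with a fold of 9.06, and the nearest H4WT region was 56192 bp from H2ac1. Aoc1, the diamine oxidase gene whose promoter is shown above, had a fold of 8.45 and an H4WT distance of 86703 bp. Pdlim5, a cytoskeletal adaptor gene, had a fold of 7.72 and a distance of 70372 bp. Plcxd2 had a fold of 7.49 and a distance of 114586 bp, and Fthl17f on chromosome X a fold of 7.40 and a distance of 59085 bp. H2ac1, H2bc1, Aoc1, Pdlim5, Plcxd2 and Fthl17f stayed gained under all 9 alternatives, and Scp2 had neither mark with windows of 500 bp. H2-Q7 and H2-Q6, class I histocompatibility genes with folds of 8.59 and 8.33, had an empty-vector region at an end and were kept when empty-vector regions were left in. They belong to a family of near-identical copies, so reads there can be split between genes.

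The kept genes of highest H4K91R fold included several imprinted genes. Hcn2, a pacemaker channel gene, and Polrmt, the mitochondrial RNA polymerase gene, shared a region of H4K91R fold 57.8. The highest H4WT folds within 1 kb of their ends were 13.7 and 9.78, and an H4WT region of fold 33.5 that the H4K91R region overlapped lay beyond 1 kb of either gene's ends. Csf2ra and Il3ra, receptor subunits for the cytokines GM-CSF and interleukin 3, had H4K91R folds of 31.1 and 30.6, and the highest H4WT folds within 1 kb of their ends were 16.0 and 11.6. The imprinted genes Plagl1, Nap1l5, Zrsr1 and Nnat had H4K91R folds of 26.4, 23.1, 20 and 18.5 and overlapping H4WT regions of fold 14.5, 16.2, 12.2 and 18.7. Folds of the lists were not compared with each other, since each library was scaled to its own background.

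The lost genes of highest H4WT fold had varied functions. Cercam and Urm1 shared a region of fold 16.3, Timp2, an inhibitor of matrix metalloproteinases, had 15.0, and Ddost, a subunit of the enzyme that attaches sugar chains to proteins, had 14.9. Icosl, a costimulatory ligand of T cells, had 14.6 and Clic4, a chloride channel gene, 14.2. Cox8a and Cox6c, subunits of cytochrome c oxidase, had 13.0 and 12.7. Hoxa4 had 13.7 and its nearest H4K91R region was 12022 bp from a gene end. Icosl, Clic4 and Cox8a stayed lost under all 9 alternatives. Timp2, Ddost, Cercam and Urm1 were kept with windows of 2 kb.

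Developmental regulators were among the gene groups most often kept. Of 33 neural progenitor genes marked by H4WT, H4K91R marked 31 (93.9%, 79.8 to 99.3), beside 61.3% of all H4WT-marked genes. Otx1, Dlx1 and Pou3f2, transcription factors of the developing brain, had the highest H4K91R folds among them, at 14.2, 10.4 and 9.81, and all 3 regions overlapped an H4WT region. Hes1, a Notch target that holds progenitors undifferentiated, and Zic5 were the 2 lost members, with H4WT folds of 9.51 each. Of Sox genes 18 of 19 were kept (94.7%), with Sox4 the lost one, and of Hox genes 33 of 38 (86.8%). Mesoderm and endoderm genes were kept at 26 of 29 (89.7%), led by Cdx1, Foxc2 and Foxf1 with H4K91R folds of 11.7, 11.2 and 9.64. Myf5, a muscle determination factor, was gained with a fold of 4.59, and its region overlapped an H4WT region that did not reach the window. It was 1 of 36 listed genes (2.78%, beside 2.09% of all genes). At a −log10 q of 5 or more no mesoderm or endoderm gene was gained. Fox genes were kept at 36 of 43 (83.7%), and other homeobox and paired genes of the Pou, Pax, Lhx, Nkx and related families at 43 of 52 (82.7%).

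Signalling genes of development were kept nearly as often. Genes of the Wnt, Notch and Hedgehog pathways were kept at 50 of 59 (84.7%, 73.0 to 92.8). Wnt4, Hes5 and Wnt10a had H4K91R folds of 10.8, 8.33 and 8.33, Shh, Hes1 and Gli2 were lost, and Axin2, a negative regulator and target of Wnt signalling, was gained with a fold of 4.76. Fgf, Bmp and Tgf-beta pathway genes were kept at 52 of 65 (80.0%, 68.2 to 88.9). Axon guidance genes were kept at 41 of 55 (74.5%, 61 to 85.3) and sodium and calcium channel genes at 21 of 28 (75%, 55.1 to 89.3). Potassium channel genes were kept at 49 of 69 (71.0%, 58.8 to 81.3) and other neuronal genes at 20 of 28 (71.4%, 51.3 to 86.8). The intervals of the axon guidance, channel and neuronal genes hold the 61.3% of all H4WT-marked genes. Among the neuronal genes Nefm, Gad1 and Neurod2 were kept with H4K91R folds of 10.7, 9.86 and 8.53, and Syn1, Grin2b and Camk2a were lost. Collagen genes were kept at 23 of 29 (79.3%, 60.3 to 92), an interval that also holds 61.3%.

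Imprinted and germline genes were also mostly kept. Imprinted genes, which are expressed mainly from 1 parental copy, were kept at 23 of 26 (88.5%, 69.8 to 97.6), beside 61.3% of all H4WT-marked genes. Of the 30 listed imprinted genes, 9 had an H4K91Q region, against 1.27% of all genes. Germline genes were kept at 18 of 21 (85.7%), led by Mael, Dazl and Zp3 with H4K91R folds of 15.8, 12.5 and 12.3. Tnp1, a transition protein of sperm chromatin, was gained with a fold of 5.20. Pluripotency genes were kept at 18 of 22 (81.8%, 59.7 to 94.8), an interval that holds the 61.3% of all H4WT-marked genes. Tet2, Lin28a and Utf1 had the highest H4K91R folds, at 9.61, 8.50 and 7.20. Trim28, Tbx3 and Tet1 were lost, and Tcl1 was gained with a fold of 4.63. Gains were 1 of 32 germline genes (3.12%) and 1 of 33 pluripotency genes (3.03%), beside 2.09% of all genes. At a −log10 q of 5 or more no gene of these lists was gained. The pluripotency share was below that of all genes with both lists cut to 20000 peaks and with windows of 500 bp. Fibroblast genes, looked at as markers of cells that can accompany stem cell cultures, were kept at 5 of 10 (50%, 18.7 to 81.3). This interval also holds 61.3%, and the fibroblast share was above that of all genes over the whole gene and at gene starts.

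**Figure D4:**
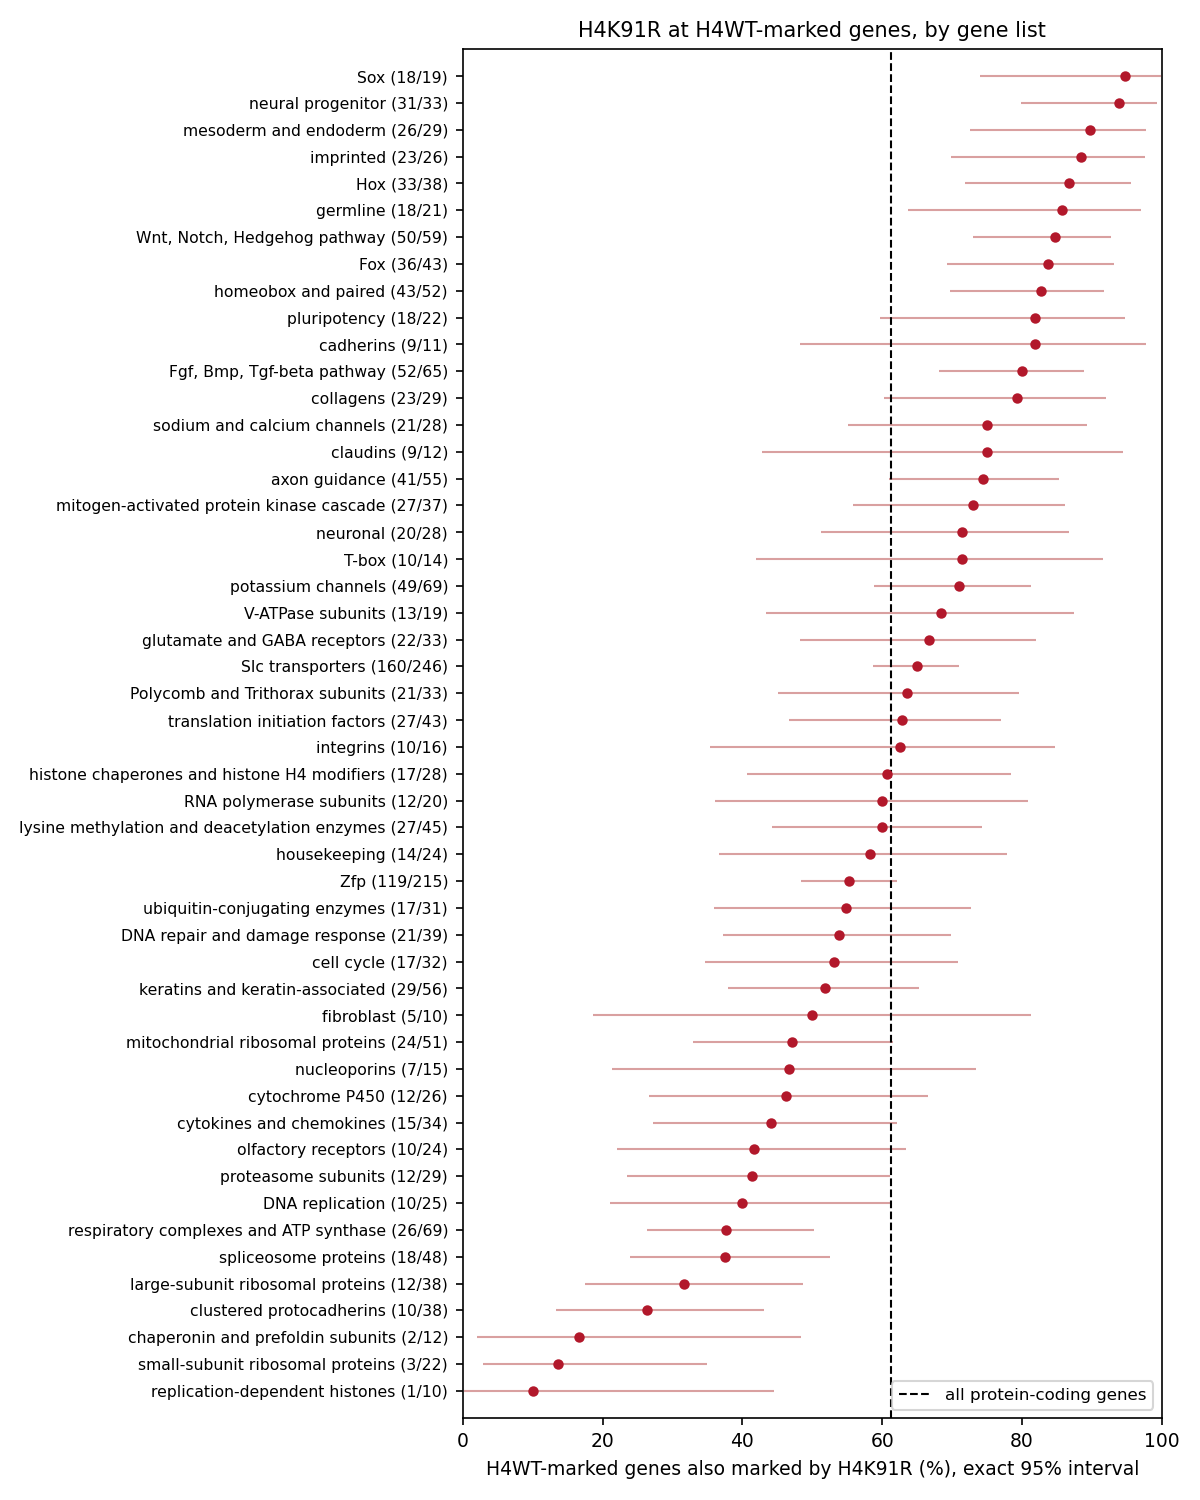
H4WT-marked genes also marked by H4K91R (x axis, %), for the 50 gene lists with at least 10 H4WT-marked genes (y axis, kept and H4WT-marked genes in brackets). Points are shares and bars exact 95% intervals; the dashed line is the share of all genes, 61.3%, with Sox and neural progenitor genes at the top and small-subunit ribosomal protein and histone genes at the bottom.

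Several groups of genes for protein synthesis, energy supply and RNA processing were lost more often than kept. Small-subunit ribosomal protein genes were kept at 3 of 22 (13.6%, 2.91 to 34.9) and large-subunit ones at 12 of 38 (31.6%, 17.5 to 48.7). Rps7 and Rps13 were lost with H4WT folds of 8.52 and 8.37, and the nearest H4K91R region was 23211 bp or more from their ends, whereas Rps19, Rps18 and Rps10 were kept with H4K91R folds of 5.62, 4.89 and 4.87. Chaperonin and prefoldin genes, whose products fold new proteins, were kept at 2 of 12 (16.7%). Respiratory complex and ATP synthase genes were kept at 26 of 69 (37.7%, 26.3 to 50.2). Spliceosome genes were kept at 18 of 48 (37.5%, 24.0 to 52.6), and Srsf10, Prpf18 and Srsf9 led the lost ones with H4WT folds of 11.1, 9.55 and 9.37. Proteasome genes were kept at 12 of 29 (41.4%, 23.5 to 61.1). Mitochondrial ribosomal protein genes were kept at 24 of 51 (47.1%, 32.9 to 61.5), an interval that holds the 61.3% of all H4WT-marked genes. So do the intervals of housekeeping genes, kept at 14 of 24 (58.3%, 36.6 to 77.9), and of V-ATPase proton pump genes, at 13 of 19 (68.4%, 43.4 to 87.4). Translation initiation factor genes, at 27 of 43 (62.8%), stood near the 61.3% of all genes, as did RNA polymerase subunits at 12 of 20 (60%).

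Kept shares of most groups of genes that handle DNA and chromatin had intervals that held the 61.3% of all H4WT-marked genes. DNA replication genes were kept at 10 of 25 (40.0%, 21.1 to 61.3), with Orc2, Gins2 and Cdt1 kept and Gins4, Pold1 and Rfc2 lost. With both lists cut to 20000 peaks the DNA replication share was 53.3%, above the 43.2% of all genes. DNA repair genes were kept at 21 of 39 (53.8%), with Lig4 and Atm among the lost. Trp53, the p53 gene, and Ercc1, a nucleotide excision repair nuclease gene, were gained with H4K91R folds of 5.32 and 4.71. They were 2 of the 50 listed repair genes (4%, 0.488 to 13.7), an interval that holds the 2.09% of all genes. Cell cycle genes were kept at 17 of 32 (53.1%). Cdkn1a, the p21 inhibitor of cyclin-dependent kinases, was gained with a fold of 4.82, as 1 of 35 listed genes (2.86%). No cell cycle gene was gained at a −log10 q of 5 or more or with both lists cut to 20000 peaks. The same held with windows of 2 kb and over the whole gene. Genes for histone chaperones and H4-modifying enzymes were kept at 17 of 28 (60.7%), with Kat5, Prmt5 and Chaf1a kept and Nap1l1, Hat1, which acetylates new H4, and Asf1a, a chaperone that hands H3/H4 on, lost. Polycomb and Trithorax genes were kept at 21 of 33 (63.6%). Replication-dependent histone genes were marked seldom by either histone: of 67, H4K91R marked 5 and H4WT 10, with 4 gained, 1 kept and 9 lost.

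Kept shares were also taken on either side of the median H4WT fold, within which fold can still differ between groups. Over all H4WT-marked genes, 47.0% of those below the median H4WT fold and 75.5% of those at or above it were kept. Neural progenitor genes were kept at 6 of 6 below it and 25 of 27 above, Wnt, Notch and Hedgehog genes at 11 of 15 and 39 of 44, and Hox genes at 6 of 9 and 27 of 29. Respiratory genes were kept at 12 of 48 below it (25%) and 14 of 21 above (66.7%), spliceosome genes at 9 of 31 (29.0%) and 9 of 17 (52.9%), and small-subunit ribosomal protein genes at 2 of 14 (14.3%) and 1 of 8 (12.5%). Of 50 lists with at least 10 H4WT-marked genes, 26 had a kept share above that of all genes and 24 below, and 19 and 16 of them kept that side under all 9 alternatives. Clustered protocadherins changed sides: they were kept at 10 of 38 (26.3%) here, at 37 of 54 (68.5%) with windows of 2 kb and at 47 of 54 (87.0%) over the whole gene.

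Gains were spread thinly over the gene groups. Zfp genes, which code for zinc finger proteins, had the most by number, with 20 of 397 gained (5.04%, 3.10 to 7.67), beside 2.09% of all genes, and stood above all genes under all 9 alternatives. Shares were higher in some small lists, such as integrins with 3 of 31 (9.68%, 2.04 to 25.8) and claudins and cadherins with 2 of 23 each (8.70%, 1.07 to 28.0). Keratins had 4 of 104 gained (3.85%, 1.06 to 9.56) and potassium channels 3 of 92 (3.26%, 0.678 to 9.23). Spliceosome genes had 2 of 63 (3.17%, 0.387 to 11) and replication-dependent histone genes 4 of 67 (5.97%, 1.65 to 14.6). The gained histone genes include H2ac1 and H2bc1, which share a region. Claudins and these 4 lists also stood above all genes under all 9 alternatives, which reuse the same libraries. Their intervals, and those of integrins and cadherins, hold the 2.09% of all genes. Zfp605, Zfp352 and Zfp790 had H4K91R folds of 7.84, 6.60 and 6.60. Among H4WT-marked Zfp genes 119 of 215 were kept (55.3%, 48.4 to 62.1), an interval that holds the 61.3% of all genes. Respiratory genes had 4 gained of 96, among them Ndufa4, Cox8b and Cox6a2 with folds of 5.78, 5.45 and 5.19. Olfactory receptor genes, which code for the odorant receptors of nasal sensory neurons, had 9 gained of 1106 (0.814%), and 10 kept of 24 with H4WT.

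Chromosome X stood apart from the autosomes. Of 216 H4WT-marked genes on X, 52 were kept (24.1%, 18.5 to 30.3), against 7775 of 12558 on autosomes (61.9%, 61.1 to 62.8). Single autosomes lay between 52.3% on chromosome 18 and 73.9% on chromosome 8. The H4WT fold of marked genes was lower on X, with a median of 5.57 against 7.48 on autosomes. Below the median H4WT fold of all marked genes, 22.6% were kept on X (16.9 to 29.1) and 47.8% on autosomes. At or above it, 8 of 21 were kept on X (38.1%, 18.1 to 61.6) and 75.6% on autosomes. Fold still differed within these groups. The median H4WT fold was 5.33 on X and 5.93 on autosomes below the cut, and 8.61 and 9.09 above it. Over all regions, at gene ends or not, 34.6% of H4K91R regions on X overlapped an H4WT region (30.8 to 38.5), against 54.2% on autosomes, and 31.8% of H4WT regions on X overlapped an H4K91R region (28.4 to 35.4), against 37.7% on autosomes. X had 616 H4K91R and 716 H4WT regions. Gained genes made up 1.76% of X genes (1.03 to 2.8), beside 2.09% of all genes. They were 17 of the 69 H4K91R-marked genes on X, beside 458 of 8286 (5.53%) over all chromosomes. Of genes without H4WT, 17 on X were gained and 733 had neither mark, beside 458 and 8654 over all chromosomes. The number of X chromosomes in these lines is not given in the labels, and its part in the X values was not tested.

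**Figure D5:**
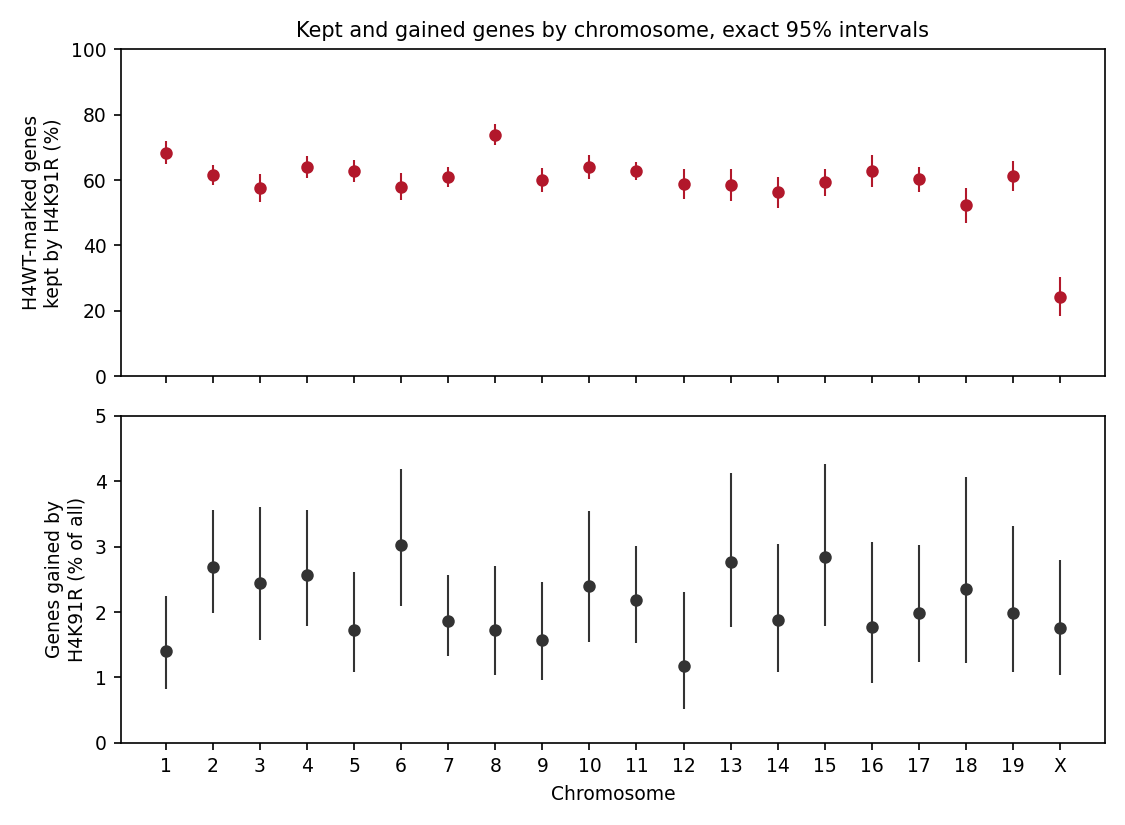
Share of H4WT-marked genes kept by H4K91R (top, %) and share of all genes gained (bottom, %), by chromosome (x axis), with exact 95% intervals; chromosome Y, with 1 marked gene, is left out. Autosomes lie between 52.3% and 73.9% kept and X at 24.1%.

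Runs of neighbouring genes of the same class were counted. A larger class forms more runs by its size alone, and the number to be had from size was not computed. Kept genes formed 980 runs of at least 3 neighbouring genes, and the longest held 28 genes on chromosome 8, from 119561978 to 121578864, among them the developmental regulators Irf8, Foxf1 and Foxc2. Lost genes formed 404 such runs. The longest held 13 genes of the gamma protocadherin cluster on chromosome 18, whose members overlap and share ends. Gained genes formed 1 such run among 431 of any length, with Tmem126a, Tmem126b and Dlg2 on chromosome 7. Genes that start head to head can share a region, as Mrpl47 and Ndufb5 did with an H4K91R fold of 11.5, so runs are in part single regions.

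H4K91Q, whose list played no part in the classes, had a region at an end of 277 genes, most of them also marked by H4K91R. Its list held 14206 regions, and those away from gene ends are not described here. It had a region at 32 of 458 gained genes (6.99%, 4.83 to 9.72), at 213 of 7828 kept genes (2.72%, 2.37 to 3.11) and at 5 of 4947 lost genes (0.101%, 0.0328 to 0.236), against 27 of 8654 genes with neither mark and 1.27% of all genes. Among gained genes with H4K91Q were Sytl3, with a fold of 16.9 in the H4K91Q list, Slc51a with 14.3, Abo, the blood group enzyme gene, with 7.94, and Zfp605 with 7.27. Folds at the kept genes Hcn2 and Nap1l5 were 23.5 and 13.6. Of the 1106 olfactory receptor genes, 7 had an H4K91Q region, and Olfr1388, with a fold of 4.99, was a gained one among them.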

How the data were processed

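HA ChIP-seq peak lists of 4 of the 36 samples were used, and the other 32 samples were not analysed here. Per the labels' protocols, cells were fixed in 1% paraformaldehyde, chromatin was sonicated, and NEBNext Ultra II libraries were made. Peaks were called with MACS2 on mm10, per the submitters' processing notes, each pulldown against the input of its line, per the peak names. The aligner, MACS2 version, duplicate handling and q threshold remain unknown (not given in the sources used here). In the deposited lists the score is 10 times the −log10 q, rounded down, in 100% of peaks and was not used. The authors' fold enrichment is a ratio to local background and was used within a list only. The deposited −log10 q served as a filter, and its lowest value was 1.58 for H4K91R and 1.40 for H4WT. The −log10 p was not used. Read depth is unknown, and a deeper library passes weaker regions.

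Genes came from a RefSeq table of GRCm38.p6. Strand was taken from the RefSeq promoter table, which matched 17492 of 21887 protein-coding genes (79.9%), none of them on chromosome 18. Of 54 gene lists, 14 were made by symbol, with 508 of 509 symbols matched, and 40 by symbol pattern. Members and lists were chosen with earlier results of these data known, and nothing here is independent of those. For each class the 25 genes of highest authors' fold could be named, then 10 gained genes with no H4WT within 10 kb, then 3 members per list and class. A few genes so chosen are not reported here. Promoters were the first 3 per class whose region overlapped the promoter.

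Shares have exact (Clopper-Pearson) 95% intervals for counting error only. The marking steps were tested on simulated regions at 2000 genes and recovered 100%. The alternatives took both lists from a −log10 q of 5 upward, H4WT cut to the length of H4K91R, both lists cut to 20000 peaks, empty-vector regions left in, gene-end windows of 500 bp and 2 kb, the whole gene, summits only, gene starts only and, for regions, stricter overlaps. Python 3.11.15, numpy 2.4.6, pandas 2.3.3, scipy 1.17.1 and matplotlib 3.10.9 were used.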

Additional observations from a re-analysis of the deposited data

Results flagged for a closer look

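The H4K91Q list, which was not used to class the genes, had regions at 32 gained genes, or 6.99% of them (4.83 to 9.72). The share was 2.72% of kept genes (2.37 to 3.11), which also have H4K91R. It was 1.27% of all genes and 0.312% of genes with neither mark (0.206 to 0.454). This is a signal in a list outside the main comparison, taken after empty-vector regions had been dropped. The count was 34 of 315 gained genes (10.8%) at a −log10 q of 5 or more, beside 2.95% of kept genes.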

How the results depend on the processing

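No paired analysis was possible because each group has 1 library. At a −log10 q of 5 or more, kept genes numbered 5110, 43.6% of H4WT-marked genes and 10.5% of those on X were kept, and 55.1% of H4K91R and 29.6% of H4WT regions were shared. With H4WT cut to the length of H4K91R, gained genes numbered 753 (9.09% of H4K91R-marked genes), 64.3% were kept, and 46.7% and 44.7% of regions were shared. With both lists cut to 20000 peaks, gained genes numbered 924 (21.3%) and kept genes 3420 (43.2%; 9.52% on X), and 38.1% of H4K91R regions were shared. Left-in empty-vector regions gave 55.2% and 38.5% of regions shared. The kept share was 55.3% with windows of 500 bp, 66.2% with 2 kb, 73.5% over the whole gene, 59.8% by summits and 56.4% at starts, and gains were 6.66% of H4K91R-marked genes with 500 bp and 6.64% by summits. Regions were shared at 32.7% for H4K91R and 23.3% for H4WT with an overlap of 50% of each, and at 50.7% and 34.8% with a summit inside the other region. The other 32 of these values stayed within the interval of the share or, for counts, within 1.5 times. Of the gained genes, 29.0% stayed gained with both lists cut to 20000 peaks and 41.7% at a −log10 q of 5 or more, so the membership of the gained class changed with these thresholds. With no read numbers and 1 library per line, list length, and with it the gained and lost counts, cannot be told apart from depth.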
